A study of Homo sapiens with 21 samples.

Results

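Target genes of the tumour suppressor p53 that act mostly outside its best-known programmes of arrest and apoptosis were followed in BJ cells, a human skin fibroblast line with a limited replicative lifespan. The set has 46 members, a given list of genes found by name with no threshold on a measured value, out of 61544 genes in the deposited count table. All 46 were found in the table and all 46 passed the filter on low counts. The series compared cells that age by repeated division with cells pushed into senescence by a drug. The passages sampled were P3 and P11, then P24, P30 and last P33, with 3 RNA-seq libraries for each. Cells at P11 that received DOX at 50 ng/ml, or DMSO as its solvent control, gave 3 libraries each, which makes 21 in all. DOX is doxorubicin, per the series title, a topoisomerase poison that breaks DNA. No genetic change is named for any group, every group comes from the 1 line BJ, and the labels used here do not say how long DOX was given. Separate cultures are not stated for the replicates, so each p-value reflects just how far these libraries spread, and that spread may be technical.

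p53 is a transcription factor that the ubiquitin ligase MDM2 keeps low in unstressed cells and that accumulates when DNA is damaged. It binds DNA elements built from a pair of 10-base motifs and switches on genes that repair DNA, slow growth, handle oxidants and lipids, feed autophagy and lysosomes, process RNA, and signal to neighbouring cells. In fibroblasts, p53 activity is known both from cells at the end of their lifespan and from cells with broken DNA.

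With DOX most of these genes rose, whereas over the passages they rose and fell. Against DMSO, 36 of the 46 members were higher and 3 lower with DOX (edgeR quasi-likelihood test, Benjamini-Hochberg adjusted over 16821 genes), where 16.8% of all genes tested were called higher and 20.6% lower. Their median log2 fold change was 0.59, beside -0.01 for all genes. From P3 to P33, 25 members were higher and 10 lower, where 34.5% of all genes were called higher and 33.3% lower, and the median was 0.19 beside 0 for all genes. These are bulk samples, in which a change in the mix of cells and a change in RNA per cell cannot be told apart.

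The libraries held 12.946 to 27.194 M counts. All 12 fibroblast markers were detected in every group, and their summed level ran from 19800 to 20600 CPM (counts per 1 M counts of a library of TMM-scaled size) at P3, 15500 to 17700 at P33, 41800 to 42900 with DMSO and 44700 to 45800 with DOX. Endothelial and leukocyte marker sums reached at most 6.35 and 2.56 CPM. Keratinocyte marker sums of 168 to 444 CPM were mostly DSP, with KRT5 at 0 in all 21 libraries, and melanocyte and Schwann sums of 26.8 to 83.6 CPM were mostly MITF, with SOX10 at most 0.201 CPM. Single markers did move. Of 12 fibroblast markers 4 were higher and 7 lower with DOX, and 5 higher and 6 lower from P3 to P33. Of 6 keratinocyte markers tested 1 was higher and 0 lower with DOX, with log2 fold changes up to 7.57. From P11 to P33, 3 of these 6 were higher and 2 lower, with values up to 7.28. Of 2 leukocyte markers tested 1 was higher and 0 lower with DOX, with values up to 3.27. Genes of cell division, which p53 represses through its targets, moved as well: of 18 proliferation genes 17 fell from P3 to P33, 17 rose from P30 to P33, and 17 fell and 1, TYMS, rose with DOX. The P3 libraries held 0.945 to 0.962% long noncoding RNA counts and the other passage libraries 1.46 to 2.11%. The part of these shifts in the results on p53 targets was not tested. Passage libraries and DOX and DMSO libraries were counted differently for overlapping genes, so no level is compared between these parts. CPM is not divided by length, so levels compare only within a gene.

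Promoters were searched for the p53 consensus motif of 10 bases, named here as the p53 decamer, which reads the same on both strands. RefSeq promoter windows on GRCh38.p14, with 250 bases before and 50 after each annotated start, held 40 of the 46 members. At least 1 perfect decamer was found for 11 of these 40 members (27.5%), against 8.06% of 27305 genes with windows of the same length. A pair of perfect decamers with 0 to 13 bases between them was found for 1 member, DDB2, against 10 of all genes (0.0366%). With at most 1 mismatch in each decamer, a pair was found for 6 members (15%), against 6.48% of all genes. Such a pair can contain a perfect decamer, so the searches overlap. A gene counted if any of its windows matched, and members had more windows per gene, 58 for 40 against 35116 for 27305. The members are a list of p53 targets and no neutral sample, so nothing is read from their larger shares. The sequences below show the DDB2 pair and the single decamers of members whose effects of passage and DOX differed by the test given further on, with the decamer in capitals and 10 bases on each side for the single ones.
DDB2: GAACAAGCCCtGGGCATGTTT
FDXR: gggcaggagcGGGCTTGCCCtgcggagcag
AEN: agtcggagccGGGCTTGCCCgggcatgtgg
EPS8L2: cctgtgctccAGGCTTGTCCacagctccgg
SESN1: attgtcgtctGGACAAGTCTccacaagtca
PLK2: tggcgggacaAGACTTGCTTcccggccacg
RPS27L: ggcctagagcAGACAAGCCCgccccgccgc
ABHD4: ggacctggcaAGGCTTGTTTactatggccg
The DDB2 pair lies at chr11:47214979-47214999 on the + strand, from base 5 to base 25 after an annotated start, with 1 base between the decamers. The single decamers lie in the windows chr17:74872986-74873015 (FDXR, - strand), chr15:88621296-88621325 (AEN, +), chr11:720505-720534 (EPS8L2, +), chr6:109009018-109009047 (SESN1, -), chr5:58460199-58460228 (PLK2, -), chr15:63157517-63157546 (RPS27L, -) and chr14:22598284-22598313 (ABHD4, +). The other members with a decamer were PANK1, RAP2B and SLC12A4. Of the 11 members with a decamer, 7 were higher, 1 lower and 3 not called with DOX, and of the 29 without one, 23 were higher, 2 lower and 4 not called. FDXR, AEN and SLC12A4 hold the same decamer letters, and all were higher with DOX, whereas FDXR and AEN were lower and SLC12A4 higher at P33 than at P3. A match of letters is a description and does not show that p53 binds there in these cells.

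Over the passages most members moved by less than 2-fold. Between the lowest and highest passage mean, 7 of the 46 members spanned at least 2-fold: GADD45A, BTG2, PLK3, CYFIP2, SPATA18, ACER2 and TP53INP1. The highest mean was at P33 for 24 members, against 26.3% of all genes tested, and at P3 for 11, against 31.2%. With library totals in place of TMM scaling the highest mean was at P33 for 30 members, against 36.3% of all genes. In 14 members all 3 P33 libraries lay above the other 12 passage libraries, where 12.8% of all genes did so, and in 3 members all lay below, where 12.9% did. With library totals the first count was 22 in place of 14. That scaling moved the median log2 fold change of all genes from P3 to P33 to 0.16. The matching share of all genes was not counted, so nothing is read from the larger number. The 14 were XPC, DDB2, GADD45A, BTG2, PLK3, EDA2R, CYFIP2, SPATA18, ACER2, ZMAT3, FBXO22, EPS8L2, TSKU and TM7SF3, and the 3 were ASCC3, RPS27L and TRIM32. The map of all members by library shows the P33 columns as the reddest of the passage block for the genes of the first list.

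**Figure D1:**
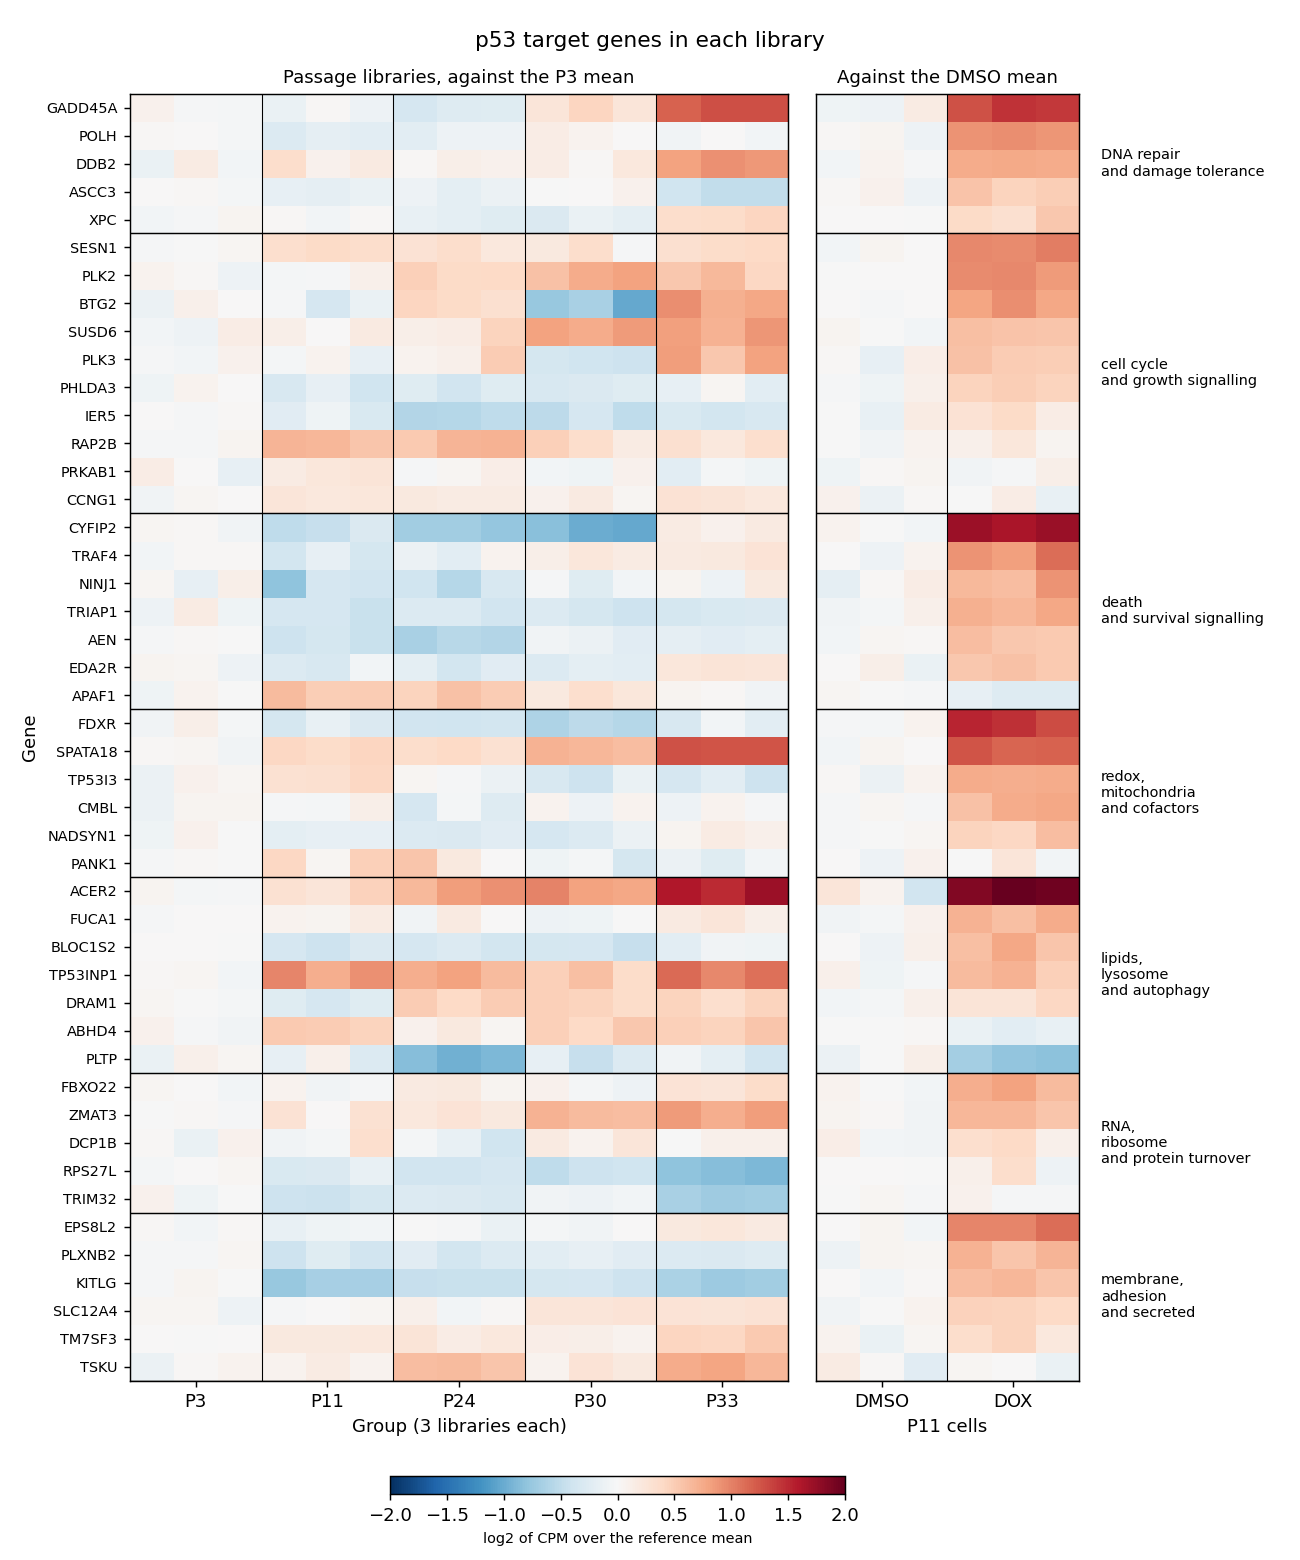
Each row is a p53 target gene and each column a library. Colour gives the log2 of CPM over the P3 mean in the left block (passages P3 to P33) and over the DMSO mean in the right block, red above and blue below. Rows are grouped by role and ordered by DOX response. With DOX 36 of 46 rows were called higher, and in 14 rows the 3 P33 libraries exceed all other passage libraries.

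Among the DNA repair genes, 3 of 5 rose from P3 to P33, 1 fell and 1 was not called, with a median log2 fold change of 0.39. For this and each class below, 34.5% of all genes were called higher and 33.3% lower from P3 to P33. Each class holds few genes, so its counts are a description. DDB2, which recognises ultraviolet lesions for nucleotide excision repair, stood at 32.9, 40.2 and 34.6 CPM in the 3 P3 libraries, 39.9, 36.5 and 41.7 at P30 and 62.8, 67.4 and 65.8 at P33. It stayed within 32.9 to 45.9 CPM in the 12 libraries up to P30, and the P33 libraries lay clear above them (log2 fold change 0.86, SE 0.0672, adjusted p = 1.13e-14). GADD45A, a stress-induced protein that binds PCNA and slows growth, was at 163, 151 and 150 CPM at P3 and 122, 129 and 130 at P24, and rose to 183, 207 and 183 at P30 and 350, 375 and 377 at P33. The P33 libraries did not overlap with any earlier passage, and the rise was 2.38-fold from P3 (log2 fold change 1.25, SE 0.0615, adjusted p = 6.91e-21). XPC, which like DDB2 finds lesions for excision repair, fell by 0.19 on the log2 scale from P11 to P24 and rose by 0.59 (SE 0.0552) on the log2 scale in the last step. ASCC3, a helicase subunit that opens DNA for the repair of alkylated bases, went down instead. Its libraries read 277, 283 and 271 CPM at P3, 276, 280 and 294 at P30 and 211, 197 and 198 at P33, and the P33 libraries were below all others (log2 fold change -0.46, SE 0.0521, adjusted p = 4.2e-10). POLH, the polymerase that copies past ultraviolet lesions, had a log2 fold change of -0.04 (SE 0.0535) and was not called, but with library totals alone it read 0.15 and was called.

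Of 10 genes of cell cycle and growth signalling, 7 rose from P3 to P33, 1 fell and 2 were not called, with a median of 0.33. BTG2, an antiproliferative cofactor of RNA decay, dipped before it rose. Its libraries held 18.4, 21.3 and 20.1 CPM at P3, 26.8, 26 and 24.9 at P24, 11.8, 12.7 and 9.76 at P30 and 38.1, 32.5 and 34.1 at P33. The P30 libraries were the lowest of the course and the P33 libraries the highest, with no overlap between them (log2 fold change 1.60, SE 0.0881, adjusted p = 7.28e-19). PLK3, a polo-like kinase of the stress response, dipped likewise, from 15.4, 15.7 and 21 CPM at P24 to 11.5, 11.2 and 11 at P30 and up to 26.3, 21.3 and 25.7 at P33 (log2 fold change 1.12, SE 0.103, adjusted p = 4.38e-12). Both genes are also known as quickly induced growth-response genes. The immediate early genes, a list of 22, counted 16 higher and none lower from P24 to P30, where 17.9% of all genes were called higher and 17.1% lower. From P30 to P33 they counted 8 higher and 7 lower, where 23.6% and 24.8% of all genes were. Log2 fold changes of the list in this last step ran from -1.58 to 2.29, with a median of 0.10. At least 2-fold changes were called for 5 genes higher and 4 lower. FOSB changed by 2.29 (SE 0.763) and ATF3 by 1.83 (SE 0.12) on the log2 scale. FOSB libraries overlapped, with 6.85, 4.42 and 2.71 CPM at P30 and 54.8, 2.4 and 12.5 at P33. ATF3 read 7.13, 8.52 and 6.12 and then 28.1, 23.3 and 26.8. The part of such induction in BTG2 and PLK3 was not tested. SUSD6, a membrane protein induced by p53, rose a step earlier, from 16.2, 15.6 and 18.6 CPM at P3 and 18.3, 18.6 and 22.9 at P24 to 29.4, 28 and 30.4 at P30, and read 29.7, 27.1 and 31 at P33. PLK2, another stress-response polo-like kinase, had 42.3 ± 2.5 CPM at P3, 69.2 ± 5.4 at P30 and 61.3 ± 4.9 at P33 (mean ± SD, n = 3, here and below).

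SESN1, a sestrin that restrains mTORC1, rose at the first step and then held, with 18.5 ± 0.48 CPM at P3, 23.6 ± 0.41 at P11 and 23.7 ± 0.69 at P33. RAP2B, a small GTPase, was highest in the middle of the course, at 63.6 ± 3.2 CPM at P11 and 63.7 ± 4.4 at P24, and stood at 50.3 ± 2.5 at P33, above 41 ± 1.3 at P3. CCNG1, cyclin G1, had a log2 fold change of 0.26 (SE 0.0592) from P3 to P33. IER5, an immediate early response gene, was the member of this class that fell, from 122, 120 and 124 CPM at P3 to 80.9, 81.9 and 85.9 at P24 and 98.5, 94.4 and 97.3 at P33 (log2 fold change -0.33, SE 0.0638, adjusted p = 1.57e-05). Its lowest passage was P24, and none of the P33 libraries reached the P3 range. PHLDA3, an inhibitor of AKT, and PRKAB1, a subunit of the energy sensor AMPK, were not called, at -0.11 (SE 0.0655) and -0.12 (SE 0.0809), but were called lower without P33 replicate 2 (PHLDA3, -0.17) and without P3 replicate 3 (PRKAB1, -0.19).

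Death and survival genes mostly fell at the first step. From P3 to P11, 6 of the 7 fell and 1 rose, where 23.7% of all genes were called lower and 22.8% higher. Over all 46 members the falls of that step numbered 10 with library totals alone in place of 18. From P11 to P33, 5 of the 7 rose and 1 fell, where 27.7% of all genes were called higher and 29.7% lower. From P30 to P33, 2 rose and 1 fell, near the shares of all genes, 23.6% higher and 24.8% lower. From P3 to P33 the class counted 3 higher and 2 lower, where 34.5% of all genes were called higher and 33.3% lower, with a median of 0.05. CYFIP2, a subunit of the actin-regulating WAVE complex and a p53-induced partner of FMRP, showed the widest swing of the class. It read 41, 40.8 and 38.2 CPM at P3, 28.2, 29.1 and 32.8 at P11, 24.6, 24.6 and 23.5 at P24 and 22.5, 20.2 and 19.6 at P30. At P33 its libraries returned to 44.6, 42.6 and 45.1, above every earlier library (log2 fold change 1.08, SE 0.0683, adjusted p = 5.81e-17). Against P3 the gain of CYFIP2 was small (log2 fold change 0.14, adjusted p = 0.0413), and its call was lost without P3 replicate 2 or 3 or P33 replicate 1 or 3 (adjusted p = 0.0625, 0.194, 0.111 and 0.0789) and without a count filter (0.222). EDA2R, a receptor of the TNF receptor family, went from 55 ± 1.6 CPM at P30 to 76.3 ± 0.94 at P33. APAF1, the scaffold of the apoptosome, ran the other way, from 25.1, 27.9 and 26.4 CPM at P3 to 41.2, 37.1 and 37.6 at P11 and back to 27.6, 27 and 25.3 at P33, where the libraries overlapped those of P3. AEN, a nuclease of apoptotic cells, read 55.3, 57.6 and 56.3 CPM at P3, 36, 38.3 and 37.4 at P24 and 50, 48 and 49.4 at P33. TRIAP1, an apoptosis inhibitor that moves lipids inside mitochondria, fell from 35.2, 42.4 and 35.7 CPM at P3 to 29.7, 30.6 and 30.9 at P33 (-0.32, SE 0.0672, on the log2 scale), and for both genes the P33 libraries lay below all P3 libraries. NINJ1, a membrane protein that breaks open dying cells, and TRAF4, a signalling adaptor, were lowest at P11, at 21 ± 3.6 and 16.9 ± 1.3 CPM, and TRAF4 alone of the pair was called from P3 to P33 (0.22, SE 0.0786, on the log2 scale). With library totals alone NINJ1 (0.25) and APAF1 (0.20) were called higher as well.

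Among 6 genes of redox, mitochondria and cofactors, 1 rose from P3 to P33, 2 fell and 3 were not called, with a median of -0.08. Of all genes 34.5% were called higher and 33.3% lower. SPATA18, which acts in mitochondrial quality control, climbed from 86.1, 86.9 and 80.6 CPM at P3 to 112, 109 and 114 at P11, 137, 134 and 130 at P30 and 204, 203 and 202 at P33. Its P33 libraries agreed closely and lay above all others (log2 fold change 1.26, SE 0.0506, adjusted p = 6.7e-24). TP53I3, a quinone reductase that makes reactive oxygen, peaked at P11, with 53.2, 53.5 and 56.9 CPM, and fell to 34.3, 32.1 and 39.1 at P30 and 34, 36.9 and 32.3 at P33, below 39.4, 45.3 and 44 at P3. The P33 libraries lay under all P3 and P11 libraries and overlapped those of P30. FDXR, the reductase that feeds electrons to mitochondrial steroid and iron-sulphur synthesis, was lowest at P30, with 17.8, 19.1 and 18.4 CPM, and stood at 21.9, 26.4 and 23.6 at P33, overlapping 26, 29.7 and 26.6 at P3. NADSYN1, which makes NAD, CMBL, a hydrolase, and PANK1, the first enzyme of coenzyme A synthesis, were not called from P3 to P33, at 0.10 (SE 0.061), -0.02 (SE 0.0705) and -0.14 (SE 0.119), but with library totals alone NADSYN1 (0.30) and CMBL (0.18) were called, and NADSYN1 also among genes with a mean of at least 5 CPM (0.23).

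Of 7 genes of lipids, lysosome and autophagy, 5 rose from P3 to P33 and none fell, with 2 not called and a median of 0.41. ACER2, a Golgi ceramidase that turns ceramide into sphingosine, rose over the course from 2.65, 2.47 and 2.5 CPM at P3 to 3.98, 4.52 and 4.79 at P24, 5.03, 4.42 and 4.34 at P30 and 7.71, 7.11 and 8.34 at P33. This was the largest fold change of the 46 members from P3 to P33, 3.03-fold, with no overlap between P33 and any other passage (log2 fold change 1.60, SE 0.132, adjusted p = 6.43e-14). TP53INP1, which links p53 to autophagy, made its main rise at the first step, from 27.3, 27.6 and 25.9 CPM at P3 to 52.9, 44.5 and 50.6 at P11. It then eased to 37.6, 40.6 and 34.7 at P30 and stood at 58.7, 52.6 and 57.8 at P33, above all P30 libraries but overlapping P11. DRAM1, a lysosomal membrane protein of autophagy, rose between P11, at 498 ± 19 CPM, and P24, at 835 ± 33, and stood at 800 ± 38 at P33. ABHD4, a lipid hydrolase, rose from 20.7, 19 and 18.4 CPM at P3 to 27.8, 27.6 and 26.3 at P11, and after a low of 20.6, 22.1 and 19.9 at P24 read 27, 26.5 and 28.5 at P33. FUCA1, a lysosomal fucosidase, rose by 0.18 (SE 0.0637) on the log2 scale, a call lost without a count filter (adjusted p = 0.0712). PLTP, a phospholipid transfer protein, had its low at P24, with 6.32, 5.84 and 6.1 CPM against 10.4, 12.2 and 11.7 at P3. BLOC1S2, a subunit of complexes that position lysosomes, read 81.1 ± 0.7 CPM at P3 and 74.2 ± 4 at P33. PLTP and BLOC1S2 were not called from P3 to P33 (-0.21, SE 0.102, and -0.13, SE 0.0598), although PLTP was called lower without P3 replicate 1 (-0.26) or P33 replicate 1 (-0.29), and BLOC1S2 without a count filter (-0.15) or with the passage libraries fitted alone (-0.12).

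RNA, ribosome and protein turnover genes divided into 2 higher, 2 lower and 1 not called from P3 to P33, with a median of 0.07. These counts are near the shares of all genes, 34.5% higher and 33.3% lower. ZMAT3, an RNA-binding zinc finger protein that alters splicing, rose from 149 ± 2.9 CPM at P3 to 233 ± 6.4 at P30 and 260 ± 12 at P33 (log2 fold change 0.80, SE 0.0589, adjusted p = 1.96e-15). RPS27L, a p53-induced ribosomal protein closely related to RPS27, had the largest fall of the set. It read 161, 166 and 170 CPM at P3, 128, 127 and 131 at P24, 117, 125 and 126 at P30 and 95.4, 92.2 and 89.5 at P33. No P33 library reached any earlier one (log2 fold change -0.84, SE 0.0661, adjusted p = 3.92e-14). RPS27 fell by a like amount, from 280, 345 and 304 CPM at P3 to 160, 162 and 183 at P33 (log2 fold change -0.88, adjusted p = 1.05e-14). Both belong to a family with near-identical copies, so their counts are uncertain. TRIM32, a ubiquitin ligase, fell from 62.4, 55.6 and 58.9 CPM at P3 to 44.2, 43.9 and 46.1 at P11, returned to 56.2, 54.7 and 56.7 at P30 and dropped to 37.7, 36.1 and 36.5 at P33, under every other passage library (log2 fold change -0.68, SE 0.0566, adjusted p = 7.67e-14). FBXO22, a substrate receptor for ubiquitin ligation, rose by 0.29 (SE 0.0588) on the log2 scale. DCP1B, a cofactor of mRNA decapping, was not called (0.07, SE 0.116), but with library totals alone it read 0.26 and was called.

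Among 6 membrane and secreted genes, 4 rose and 2 fell from P3 to P33, with a median of 0.23, where 34.5% of all genes were called higher and 33.3% lower. KITLG, the ligand of the receptor KIT, fell at once, from 201, 212 and 203 CPM at P3 to 121, 129 and 130 at P11. It then partly recovered to 161, 163 and 154 at P30 and fell again to 132, 124 and 127 at P33. Every library after P3 lay below the P3 range (log2 fold change -0.68, SE 0.0495, adjusted p = 1.25e-15). PLXNB2, a semaphorin receptor, followed the first part of that course, with 507, 507 and 528 CPM at P3, 387, 434 and 393 at P11 and 426, 422 and 432 at P33. TSKU, a secreted leucine-rich protein, was high at P24 and P33, with 10.1, 10.3 and 9.67 and 11.1, 11.4 and 10.5 CPM, and lower at P3 and P30, with 6.12, 6.74 and 6.97 and 6.96, 8 and 7.59. EPS8L2, an actin regulator, went from 101, 95.4 and 101 CPM at P3 to 113, 116 and 112 at P33, a small rise without overlap (0.20, SE 0.0518). TM7SF3, a multi-pass membrane protein, and SLC12A4, a potassium-chloride cotransporter, rose by 0.46 (SE 0.0567) and 0.27 (SE 0.0531) on the log2 scale.

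**Figure D2:**
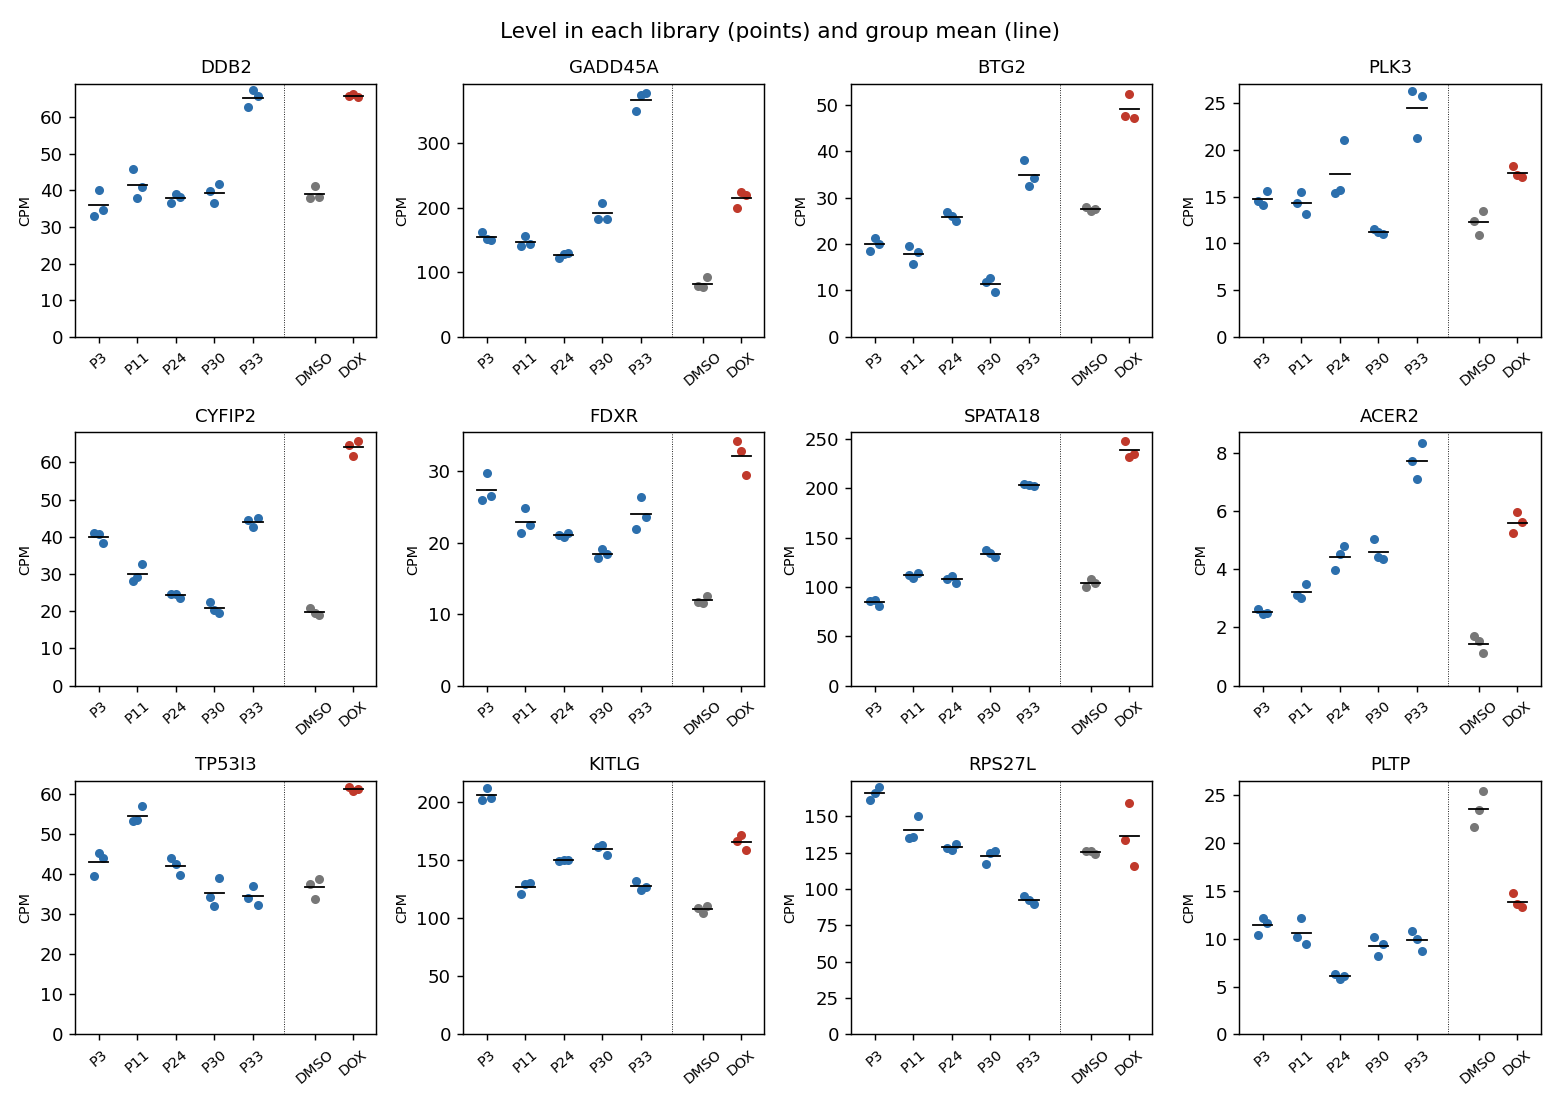
CPM in each library (points) and group means (lines) for 12 members, with passages P3 to P33 on the left of each panel and the DMSO and DOX libraries on the right of the dotted line. DDB2, GADD45A, BTG2, PLK3, CYFIP2, SPATA18 and ACER2 have their P33 points above all earlier passage points, and the 3 DOX points lie above the 3 DMSO points in every panel but those of RPS27L and PLTP.

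Some of the falls from P3 to P33 depended on how libraries were scaled. With library totals alone the median of all genes moved to 0.16, and 31 members were then higher and 4 lower. The calls of IER5, TP53I3, TRIAP1, PLXNB2, AEN and FDXR were lost under that scaling, whereas RPS27L, TRIM32, KITLG and ASCC3 were still lower. FDXR also missed the threshold when P3 replicate 2 (adjusted p = 0.122), P33 replicate 1 (0.132) or P33 replicate 3 (0.0695) was left out, and when same-strand overlapping genes were (0.0666). Both FDXR and AEN missed the threshold among genes with a mean of at least 5 CPM (adjusted p = 0.351 and 0.195).

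Against P11, 26 members were higher at P33 and 8 lower, where 27.7% of all genes were called higher and 29.7% lower. The largest rises were in GADD45A (1.32), ACER2 (1.27) and BTG2 (0.97), and the largest falls in TP53I3 (-0.66), RPS27L (-0.60) and APAF1 (-0.54), all on the log2 scale. These comparisons share the P33 libraries, so their values stand side by side and are not independent.

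The steps between neighbouring passages placed the turns of single genes. From P3 to P11, 13 members rose and 18 fell, where 22.8% of all genes were called higher and 23.7% lower. With library totals alone the counts were 16 and 10. TP53INP1, RAP2B and APAF1 rose most (0.87, 0.64 and 0.55), and KITLG, NINJ1 and CYFIP2 fell most (-0.70, -0.50 and -0.42). From P11 to P24, 8 rose and 9 fell, where 16% of all genes were called higher and 17.7% lower. DRAM1, BTG2 and TSKU rose most in that step (0.75, 0.54 and 0.49), and PLTP, ABHD4 and TP53I3 fell most (-0.82, -0.39 and -0.38). From P24 to P30, 16 rose and 10 fell, where 17.9% of all genes were called higher and 17.1% lower. With library totals alone those counts were 11 and 13, and without P30 replicate 3 the falls numbered 6. All 18 proliferation genes fell in the same step. PLTP, GADD45A and SUSD6 rose most (0.61, 0.59 and 0.54), and BTG2, PLK3 and TSKU fell most (-1.17, -0.64 and -0.41).

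In the last step, from P30 to P33, 21 members rose and 6 fell, where 23.6% of all genes were called higher and 24.8% lower. With library totals alone the median of all genes was 0.12 and the counts were 29 and 4. The rises were led by BTG2 (3.03-fold), PLK3 (2.18-fold), CYFIP2 (2.12-fold), GADD45A (1.92-fold), ACER2 (1.67-fold) and DDB2 (1.66-fold), whose libraries are given above. TRIM32, ASCC3, RPS27L and KITLG fell most, by 0.60, 0.49, 0.41 and 0.32 on the log2 scale. The fall of PLK2 (-0.17) was lost without P30 replicate 2 or 3 or P33 replicate 3 (-0.16, -0.13 and -0.10), and with library totals alone (-0.01) the calls of PLK2 and APAF1 were both lost. Small rises of CCNG1, PHLDA3 and ZMAT3 (0.15, 0.17 and 0.15) were lost without P30 replicate 1 or 3 or P33 replicate 1 for CCNG1 (0.13, 0.12 and 0.13), without P30 replicate 1 or 2 or P33 replicate 2 for PHLDA3 (0.15, 0.16 and 0.11) and without P30 replicate 2 or 3 or P33 replicate 1 or 3 for ZMAT3 (0.14, 0.13, 0.13 and 0.15). IER5 and SESN1 were called higher without P30 replicate 2 (0.18 and 0.25) and POLH lower without P30 replicate 3 (-0.15).

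DOX was compared with DMSO to see the response of P11 cells to the drug. All 5 DNA repair genes rose, with a median log2 fold change of 0.75. For this and each class below, 16.8% of all genes were called higher and 20.6% lower with DOX. GADD45A read 78, 76.9 and 92.4 CPM with DMSO and 199, 224 and 220 with DOX (log2 fold change 1.38, SE 0.064, adjusted p = 3.39e-21). The groups were far apart, and DDB2 was likewise separate at 37.8, 41.1 and 38.3 CPM against 65.7, 66.3 and 65.6. ASCC3 rose from 253, 264 and 234 to 371, 340 and 352 CPM. POLH and XPC rose by 0.90 (SE 0.0558) and 0.41 (SE 0.0537) on the log2 scale.

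Of 10 cell cycle and growth genes 7 rose with DOX and none fell, with a median of 0.49. SESN1, PLK2 and BTG2 changed most, at 1.97-fold, 1.89-fold and 1.78-fold. BTG2 stood at 27.9, 27.2 and 27.6 CPM with DMSO and 47.6, 52.4 and 47.1 with DOX, and PLK3 at 12.4, 10.9 and 13.4 and 18.3, 17.3 and 17.1. Neither gene overlapped between the groups. Immediate early genes in the same comparison counted 4 higher and 3 lower of 22, where 16.8% of all genes were called higher and 20.6% lower. IER5 rose by 0.28 (SE 0.0676) with overlapping libraries, 58.5, 53.1 and 65.9 CPM against 72.5, 77.1 and 65.3. SUSD6 and PHLDA3 rose by 0.58 (SE 0.0811) and 0.46 (SE 0.0696). CCNG1, a long-known p53 target, had 233, 202 and 222 CPM with DMSO and 217, 244 and 198 with DOX and a log2 fold change of 0.00 (SE 0.0583). PRKAB1 and RAP2B were not called either (0.01, SE 0.0801, and 0.13, SE 0.0654).

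Death and survival genes counted 6 higher and 1 lower with DOX, with a median of 0.72. CYFIP2 had 20.8, 19.6 and 19 CPM with DMSO and 64.7, 61.6 and 65.7 with DOX, a 3.22-fold rise with a wide gap between the groups (log2 fold change 1.69, SE 0.0664, adjusted p = 1.55e-23). AEN rose from 36.1, 38.4 and 38 to 57.5, 54.4 and 54.1 CPM and TRIAP1 from 26.9, 27.3 and 30.3 to 46.2, 44.8 and 48. TRAF4, NINJ1 and EDA2R rose by 0.95 (SE 0.0877), 0.73 (SE 0.112) and 0.55 (SE 0.066). APAF1 was the 1 that fell, from 34.7, 33.7 and 33.2 to 30.1, 28.3 and 28.3 CPM, a small step without overlap (log2 fold change -0.23, SE 0.0653, adjusted p = 0.00495).

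Redox and mitochondrial genes rose in 5 of 6, again with a median of 0.72. FDXR went from 11.7, 11.6 and 12.5 CPM with DMSO to 34.3, 32.8 and 29.5 with DOX, 2.7-fold (log2 fold change 1.43, SE 0.0826, adjusted p = 3.5e-18). SPATA18 went from 100, 108 and 104 to 248, 232 and 235 (log2 fold change 1.20, SE 0.0505, adjusted p = 1.39e-22), and TP53I3 from 37.5, 33.8 and 38.7 to 61.6, 60.7 and 61.1 (log2 fold change 0.74, SE 0.0681, adjusted p = 6.15e-12). In none of these did a DOX library overlap a DMSO library. CMBL and NADSYN1 rose by 0.70 (SE 0.0719) and 0.49 (SE 0.062), and PANK1 was not called (0.06, SE 0.116).

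In the lipid, lysosome and autophagy class 5 rose and 2 fell with DOX, with a median of 0.60. ACER2 had the largest fold change of the set, from 1.71, 1.52 and 1.11 to 5.24, 5.97 and 5.61 CPM, 3.8-fold at a low level (log2 fold change 1.92, SE 0.163, adjusted p = 5.38e-13). PLTP fell the most of the 46, from 21.7, 23.5 and 25.5 to 14.8, 13.6 and 13.3 CPM with no overlap (log2 fold change -0.75, SE 0.0931, adjusted p = 1.04e-08). The lipid hydrolase ABHD4 read 58.7, 58.9 and 60.3 with DMSO and 54.2, 51.5 and 53.4 with DOX, a fall of 0.16 on the log2 scale (adjusted p = 0.0258). That call was lost without DMSO replicate 2 or 3 or DOX replicate 2, without a count filter, and when the fit held only the 6 DOX and DMSO libraries (adjusted p = 0.0638, 0.0653, 0.0775, 0.0648 and 0.105). FUCA1, BLOC1S2, TP53INP1 and DRAM1 rose by 0.68, 0.64, 0.60 and 0.32, and TP53INP1 read 68.4, 60.5 and 62.8 CPM with DMSO and 99.1, 103 and 89.2 with DOX.

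RNA and protein turnover genes rose with DOX in 3 of 5, with a median of 0.27. FBXO22 and ZMAT3 rose by 0.72 (SE 0.0592) and 0.63 (SE 0.0585), and DCP1B by 0.27 (SE 0.103) with overlapping libraries, a call lost without DMSO replicate 2 or 3 or DOX replicate 1 or 2 (adjusted p = 0.0915, 0.124, 0.119 and 0.135). RPS27L had 126, 126 and 124 CPM with DMSO and a wide 134, 159 and 116 with DOX, and TRIM32 had 47.5, 49.3 and 47.4 and 50.9, 47.4 and 47.1. Neither was called (0.12, SE 0.066, and 0.02, SE 0.0571), but without DOX replicate 3, its lowest library, RPS27L was called higher (0.22, adjusted p = 0.00457). Of the membrane and secreted genes 5 of 6 rose with a median of 0.53, and EPS8L2 led with 51.3, 52.8 and 49.2 against 101, 101 and 111 CPM (log2 fold change 1.03, SE 0.0547, adjusted p = 2.63e-19). KITLG rose from 109, 104 and 110 to 166, 171 and 158 and PLXNB2 from 382, 423 and 422 to 660, 600 and 657, both without overlap. TSKU was not called, at 13.7, 12.4 and 10.4 and 12.5, 12.2 and 11.1 CPM.

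Set side by side, the P33 effect (P33 minus P3) and the DOX effect (DOX minus DMSO) share no library. Of the 25 members higher at P33 and the 36 higher with DOX, 21 were in both lists, beside 9.14% of all genes tested. Lists that hold 25 and 36 of 46 members must share many, no test of the overlap was run, and nothing is read from it. Of these 21, the difference between the effects was not called for 12, XPC, DDB2, GADD45A, BTG2, PLK3, SUSD6, SPATA18, ACER2, DRAM1, ZMAT3, SLC12A4 and TM7SF3. For SPATA18 the difference was -0.07 (SE 0.0708) and for GADD45A 0.13 (SE 0.0877) on the log2 scale, and a difference that misses the threshold does not show that the effects are equal. The difference was called higher without DMSO replicate 3 for GADD45A (0.21) and without DMSO replicate 3 or P3 replicate 3 for SLC12A4 (0.20 and 0.22). It was called lower without P3 replicate 3 or P33 replicate 2 for SUSD6 (-0.30 in both) and without DMSO replicate 3 or P33 replicate 2 for ZMAT3 (-0.21 and -0.22). With P11 as the baseline of the passage effect it was called for ACER2 (0.65), SPATA18 (0.33) and DRAM1 (-0.37). Over all 46 members the DOX effect exceeded the P33 effect in 24 and was below it in 6, where 25.9% of all genes were called higher and 25.4% lower. With library totals alone the median difference over all genes was -0.18 and the counts were 22 and 14, with DDB2, PLK3, SUSD6, SPATA18, DRAM1, ZMAT3 and TM7SF3 among the 14. PLK2 (0.20) and EDA2R (0.12) lost their calls as higher under that scaling. With P11 as the baseline the counts were 28 and 3, and EDA2R (0.09), NINJ1 (0.18) and NADSYN1 (0.21) were no longer called higher.

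Members called in opposite directions by the 2 effects numbered 9. ASCC3, IER5, AEN, TRIAP1, TP53I3, FDXR, KITLG and PLXNB2 were lower at P33 than at P3 and higher with DOX, and ABHD4 was the reverse. Among all genes tested 7.62% were called in opposite directions, and the sizes of the lists alone would give some such members. With library totals alone IER5, AEN, TRIAP1, TP53I3, FDXR and PLXNB2 were no longer called from P3 to P33. The difference between the effects was largest for FDXR (log2 difference 1.63, SE 0.111, adjusted p = 8.95e-16), KITLG (log2 difference 1.30, SE 0.0707, adjusted p = 7.6e-19), TP53I3 (log2 difference 1.05, SE 0.0965, adjusted p = 3.86e-12) and TRIAP1 (log2 difference 1.04, SE 0.096, adjusted p = 5.51e-12). CYFIP2, which rose slightly at P33, had a difference of 1.55 (SE 0.0906). ASCC3 and RPS27L had differences of 0.96 (SE 0.0736) and 0.96 (SE 0.0934). Against P11 in place of P3, P33 was still lower for ASCC3 (-0.30, SE 0.0523) and TP53I3 (-0.66, SE 0.0685) and higher for AEN (0.20, SE 0.0577). The other 6 were not called against P11, with KITLG at 0.01 (SE 0.0503), FDXR at 0.06 (SE 0.0777), TRIAP1 at 0.05 (SE 0.0704), PLXNB2 at 0.08 (SE 0.0547), IER5 at -0.13 (SE 0.0646) and ABHD4 at 0.00 (SE 0.0648). Against P11, then, ASCC3 and TP53I3 were the members of the 9 still called in opposite directions. The P3 libraries also differ from the other passages in their long noncoding RNA share, 0.945 to 0.962% against 1.46 to 2.11%, and its part in these values was not tested.

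**Figure D3:**
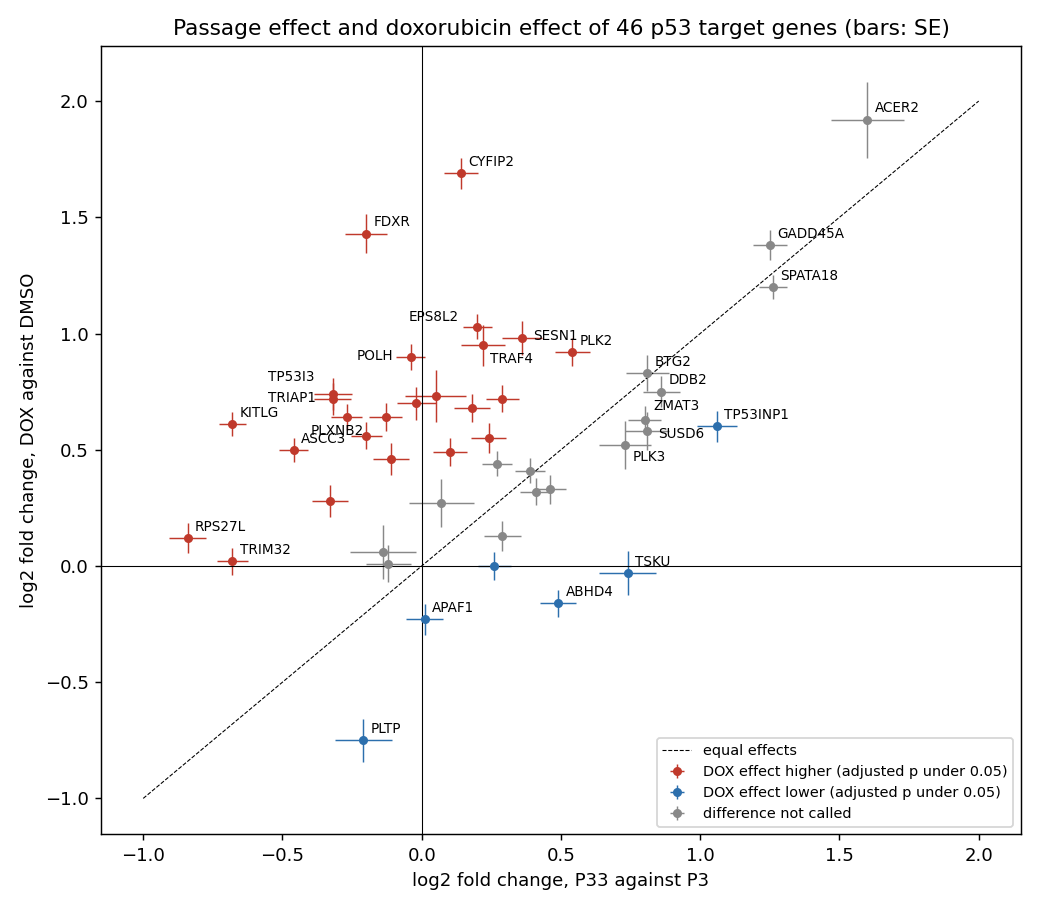
Each point is 1 of the 46 members, with its log2 fold change from P3 to P33 on the x axis and from DMSO to DOX on the y axis (bars: SE). The dashed line marks equal effects, and colour marks the test of the difference. FDXR, CYFIP2, KITLG and TP53I3 lie far above the line, SPATA18, GADD45A and BTG2 lie near it, and TSKU, ABHD4 and PLTP lie below.

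Where the P33 effect exceeded the DOX effect, TSKU led (log2 difference -0.77, SE 0.14, adjusted p = 1.33e-05), followed by ABHD4 (-0.65), PLTP (-0.54), TP53INP1 (-0.46), CCNG1 (-0.26) and APAF1 (-0.24). This group also depended on the P3 libraries. With P11 as the baseline of the passage effect, TP53INP1 and APAF1 turned to 0.41 and 0.31, and the number of members below fell to 3. ABHD4 and CCNG1 were then not called, at -0.16 and -0.02. The call of APAF1 was also lost when P33 replicate 1, P3 replicate 1 or 3, DMSO replicate 1 or DOX replicate 2 or 3 was left out (-0.21, -0.20, -0.23, -0.22, -0.22 and -0.22).

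Each member with a close relative in the genome was set beside it, to see whether a whole family moved. Of 23 pairs of member and paralog 21 could be tested. With DOX 15 of the paired members rose, and in 14 of these pairs the paralog was not called higher. With 16.8% of all genes tested called higher and 20.6% lower, most genes of any kind were not called higher either. The 21 paralogs counted 3 higher, 8 lower and 10 not called, with a median of -0.09 beside 0.46 for the members in these pairs. ACER3, EPS8, SESN3 and PHLDA1 fell (-0.42, -0.31, -0.33 and -0.29) where ACER2, EPS8L2, SESN1 and PHLDA3 rose. CYFIP1 and GADD45B were not called (-0.07, SE 0.0556, and -0.09, SE 0.0988). The pair of plexins PLXNB2 and PLXNB1 rose together (0.64 and 0.37). From P3 to P33 the paralogs counted 9 higher, 5 lower and 7 not called, where 34.5% of all genes were called higher and 33.3% lower. Their median was 0.06 beside 0.20 for the members, and in 8 of the 13 pairs whose member rose the paralog was not called higher. There SESN3 rose by 2.41 (SE 0.144), beside 0.36 for SESN1, and BTG1 by 1.26 (SE 0.0756), while CYFIP1 fell by 0.78 on the log2 scale. These pairs were drawn from general knowledge of the gene families, and the sources used here do not say how reads shared between paralogs were counted.

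**Figure D4:**
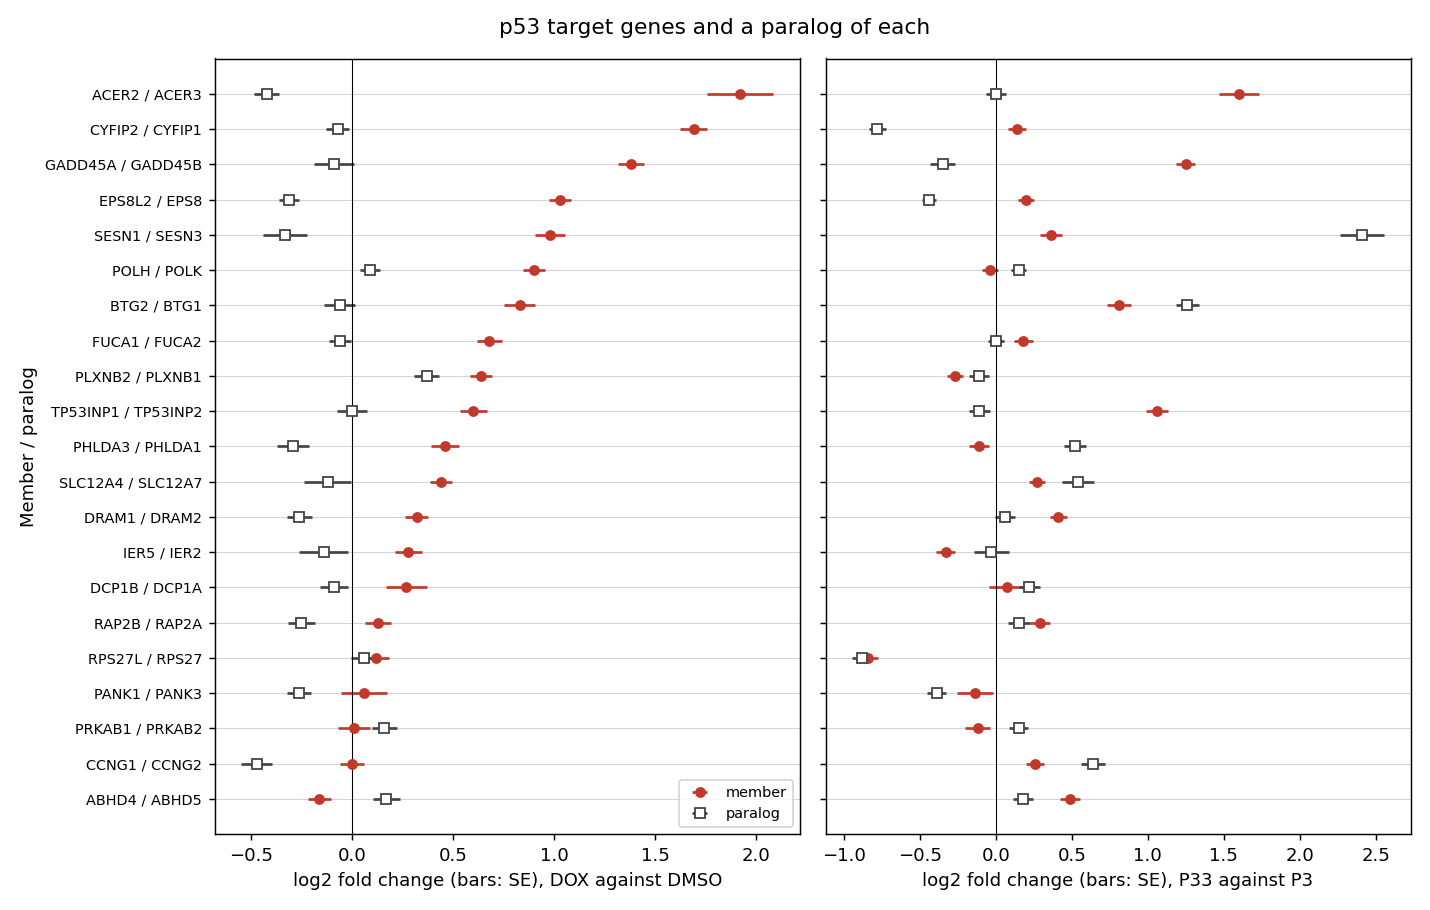
Log2 fold changes (bars: SE) of 21 members (filled circles) and a paralog of each (open squares), from DMSO to DOX on the left and from P3 to P33 on the right. In the left panel 15 members and 3 paralogs were called higher, where 16.8% of all genes tested were. In the right panel SESN3 and BTG1 lie beyond their partners, and RPS27L and RPS27 lie together near -0.84 and -0.88.

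Genes of the circuit that controls p53, a list of 18, counted 9 higher and 6 lower from P3 to P33, where 34.5% of all genes were called higher and 33.3% lower. With DOX the list counted 5 higher and 2 lower, where 16.8% of all genes were called higher and 20.6% lower. Its log2 fold changes from P3 to P33 ran from -0.94 to 1.44, with a median of 0.10, and the genes named below all rose over the passages. MDM2, both the inhibitor of p53 and one of its targets, rose from 151, 164 and 153 to 299, 304 and 307 CPM over the passages and from 169, 163 and 160 to 449, 513 and 412 with DOX (0.96, SE 0.0601, and 1.48, SE 0.0607). MDM2 overlaps another gene on the same strand, so its counts are uncertain. HIPK2, a kinase that activates p53, and PPM1D, a phosphatase that shuts it off, rose in both (1.44 and 1.01 at P33, 0.67 and 0.66 with DOX). MDM4, a partner of MDM2, rose from P3 to P33 (1.23, SE 0.0685) and was not called with DOX (0.03, SE 0.0628).

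Targets of arrest and apoptosis, listed apart with 23 of 25 tested, counted 12 higher and 8 lower from P3 to P33, where 34.5% of all genes were called higher and 33.3% lower. With DOX they counted 17 higher and 1 lower, where 16.8% of all genes were called higher and 20.6% lower. CDKN1A, the inhibitor p21 and the best-known p53 target of arrest, went from 195, 205 and 194 to 290, 288 and 288 CPM over the passages and from 142, 144 and 150 to 502, 498 and 464 with DOX (0.54, SE 0.0504, and 1.75, SE 0.0518). Its passage peak was at P30, with 325, 313 and 323 CPM. BIRC3, an inhibitor of apoptosis, and GDF15, a stress cytokine, rose most from P3 to P33 (2.81, SE 0.146, and 2.39, SE 0.125), and TNFRSF10C, a decoy receptor, led with DOX (1.96, SE 0.125). BIRC3 was not called with DOX (0.12, SE 0.127). TIGAR lies inside another gene and has no reads in the passage libraries, so it counts as tested without a passage value.

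Counts of 9 members could be affected by a gene that overlaps them on the same strand: PHLDA3, SESN1, SUSD6, PANK1, NADSYN1, CMBL, DRAM1, EPS8L2 and SLC12A4. No member lies wholly inside another gene on its strand. On the opposite strand 25 members overlap a gene, and the sources used here do not give the strand setting, so reads of such pairs may not be separated. On the build of the files (hg38, GRCh38.p13 per the submitters' processing notes) the members named most lie as follows. ACER2 is on chromosome 9 from 19409009 to 19452505, SPATA18 on chromosome 4 from 52051304 to 52097299 and GADD45A on chromosome 1 from 67685201 to 67688334. CYFIP2 is on chromosome 5 from 157266079 to 157395595, FDXR on chromosome 17 from 74862497 to 74873031 and TP53I3 on chromosome 2 from 24077433 to 24085861. BTG2 is on chromosome 1 from 203305491 to 203309602, KITLG on chromosome 12 from 88492793 to 88580851 and RPS27L on chromosome 15 from 63125872 to 63158021. Each span covers the whole gene with its introns, and the values come from the gene-level counts as deposited by the authors.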

How the data were processed

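Gene-level read counts of 21 RNA-seq libraries of BJ fibroblasts, 3 for each of 7 groups, were deposited by the authors as 1 table of raw counts. The submitters' processing notes name FastQC 0.11.9, cutadapt 3.3, HISAT2 2.1.0, SAMtools 1.11, featureCounts 2.0.1, DESeq2 1.34.0 and the builds hg38 and GRCh38.p13. The sources used here do not give the strand setting. Of 9429 genes wholly inside another on the same strand, 0 had reads in the passage libraries and 3950 in the DOX and DMSO libraries, so levels were not compared between these parts.

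Genes were filtered with filterByExpr (minimum count 10), which kept 16821 of 61544. The counts of all 21 libraries (12.946 to 27.194 M) were scaled by TMM (factors 0.899 to 1.13) and fitted in 1 model with edgeR 4.0.16 (R 4.3.3, limma 3.58.1) by quasi-likelihood, leaving 14 residual degrees of freedom (biological coefficient of variation 5.48%). Calls use a Benjamini-Hochberg adjusted p under 0.05 over all genes tested. Overlaps between genes were found with GenomicRanges 1.54.1 and figures drawn with matplotlib 3.10.9. In simulated data for P33 against P3, with 15898 genes tested, a small part of the genes was given a change and the rest had equal means in all groups. The fit recovered 91.7% of the 2-fold rises and 67.3% of the 1.5-fold rises put in. These shares rest on few genes, and the real data hold far more changes, with 34.5% of genes called higher and 33.3% lower.

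The members and all gene lists were chosen with earlier results of these data known. Values of single libraries are given, in the groups described and not always in every passage, for the 6 largest rises and 4 largest falls among called members. This holds from P3 to P33, from P30 to P33, with DOX, and in the difference of the DOX and P33 effects, and for members called in opposite directions. The 3 largest of each are named in the other comparisons, and up to 4 called genes of each other list, besides MDM2, CDKN1A and RPS27, and 1 gene of this rule is not reported here. TM7SF2, a sterol reductase put among the paralogs by mistake, was left out of the pairs. The labels do not say that replicate numbers pair samples, and deviations of same-numbered libraries correlated at -0.126 to 0.0605 (63 pairs). Alternatives were RLE and library-total scaling, DESeq2 1.42.0, other count filters, each part fitted alone, a replicate block, P11 as the baseline, genes without same-strand overlap, and each replicate left out in turn.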

Additional observations from a re-analysis of the deposited data

How the results depend on the processing

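Scaling by library totals alone gave 4 members lower from P3 to P33 in place of 10, 10 lower from P3 to P11 in place of 18, and 14 lower in the difference of effects in place of 6. That difference had 12 members lower among genes with a mean of at least 5 CPM and 3 with P11 as the baseline; the cause was not tested. Signs turned with library totals for POLH (0.15) and CMBL (0.18) from P3 to P33 and DRAM1 (0.14) from P30 to P33, and with P11 as the baseline for RAP2B (0.47), APAF1 (0.31), SPATA18 (0.33) and TP53INP1 (0.41). Library totals also put all P33 libraries above the other passages in 22 members in place of 14, and without P30 replicate 3 the falls from P24 to P30 numbered 6 in place of 10. For these alternative counts the shares of all genes were not counted. The other counts of members higher or lower stayed within 1.5 times their values under the alternatives that were run. Leaving out each replicate in turn gave 24 to 25 higher and 9 to 11 lower from P3 to P33, 25 to 26 and 8 to 9 from P11 to P33, 10 to 12 and 17 to 19 from P3 to P11, 6 to 8 and 7 to 9 from P11 to P24, 13 to 15 and 6 to 10 from P24 to P30, 19 to 21 and 5 to 6 from P30 to P33, 35 to 37 and 2 to 3 with DOX, and 24 to 26 and 5 to 8 in the difference. With a replicate block, 25 members were higher and 10 lower from P3 to P33 and 36 and 3 with DOX, and the counts of all 8 comparisons were those without the block. In the simulation 67.3% of 1.5-fold rises were recovered from P3 to P33 over genes of all levels, and for the members the SE beside each value gives its own precision.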
